A study of Rattus norvegicus with 24 samples.

Results

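Egr1, Fos, Fosl1, Jun, Junb and Myc are immediate early genes, and Nr4a1, Nr4a2 and Nr4a3 encode the NR4A family of orphan nuclear receptors. These 9 genes were taken from the array table by name, through an annotation of its probe sets. They were read by 15 probe sets, out of 14217 genes and 20826 named probe sets in all. Nr4a1, Egr1, Fosl1, Junb and Myc each had 1 probe set, Nr4a2 and Fos had 2, and Nr4a3 and Jun had 3. RNA came from INS-1E cells, a clonal insulin-secreting line derived from a rat insulinoma, and was hybridised to 24 Affymetrix arrays. Cells were given no cytokines or a cocktail of IL-1b at 10 ng/ml, IFN-g at 50 ng/ml and TNF-a at 25 ng/ml. Both were run for 6 or 12 h in DMSO, the vehicle, and in BRD0476 at 10 uM, so that 8 groups of 3 arrays result. BRD0476 is a small molecule known as a suppressor of cytokine-induced death in beta-cell lines. All groups share the same line and medium, and the labels do not say whether the 3 arrays of a group came from separate cultures, so every p-value measures only the spread between these arrays.

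Immediate early genes are transcribed within minutes of a signal, without new protein synthesis, and their transcripts usually decay soon afterwards. Fos and Fosl1 proteins pair with Jun or Junb to form the transcription factor AP-1, Egr1 is a zinc finger factor that answers to ERK signalling, and Myc pairs with Max to drive growth genes. The NR4A receptors act without a known hormone, are regulated mainly by their own abundance, and are induced by cAMP and calcium signals, in beta cells also by glucose and incretins. IL-1b and TNF-a act on these genes through MAP kinases and NF-kappaB, whereas IFN-g acts through JAK kinases and STAT factors.

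The promoters of Egr1 and Nr4a1 are shown because Egr1 moved in opposite directions at 6 and 12 h and Nr4a1 was the member with the largest response to BRD0476 alone, and because each repeats a known signal-response motif. Each sequence is the 250 bases before the RefSeq transcript start on the plus strand of the rat build GRCr8, printed 5′ to 3′. Egr1 lies at chr18:26736828-26737077 and Nr4a1 at chr7:134259888-134260137. Capitals mark CGTCA, the reverse complement of the short cAMP response motif TGACG, in both sequences. In Egr1 they also mark the SRF boxes, where serum response factor binds.
Egr1: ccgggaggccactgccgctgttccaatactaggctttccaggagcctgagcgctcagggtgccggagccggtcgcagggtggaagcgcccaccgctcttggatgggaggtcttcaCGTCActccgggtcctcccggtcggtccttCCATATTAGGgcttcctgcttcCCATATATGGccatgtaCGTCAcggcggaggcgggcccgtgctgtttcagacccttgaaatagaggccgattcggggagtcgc
Nr4a1: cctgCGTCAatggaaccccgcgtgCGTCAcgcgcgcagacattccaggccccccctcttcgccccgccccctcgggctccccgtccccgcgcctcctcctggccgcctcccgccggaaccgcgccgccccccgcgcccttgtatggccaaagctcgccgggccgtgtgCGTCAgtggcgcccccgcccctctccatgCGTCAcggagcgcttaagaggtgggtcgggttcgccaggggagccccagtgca

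Egr1 held 2 SRF boxes, which begin 105 and 83 bases before the start, and 2 short cAMP response motifs. At least 2 SRF boxes were found in 0.0209% of the 33469 promoters searched over the same length, and at least 2 short cAMP response motifs in 3.98%. Nr4a1 held 4 short cAMP response motifs, which 0.173% of promoters did, with 1 EGR site and 1 NF-kappaB site. Both promoters were shown partly for these repeats, so the shares are a description and not a test. The search covered both strands for the full cAMP response element TGACGTCA (1.59% of promoters), the short motif TGACG (18.2%), the AP-1 site TGANTCA (6.34%), the NR4A monomer site AAAGGTCA (1.24%), the EGR site GCGNGGGCG (4.29%), the STAT site TTCNNNGAA (7.67%), the SRF box (1.5%) and the NF-kappaB site (3.54%). The short motif is contained in the full element, and the sites counted in Egr1 and Nr4a1 do not overlap each other. Junb and Nr4a2 held 1 short cAMP response motif each and Fosl1 held 2, without another motif of the search. RefSeq promoters were matched for these 5 of the 9 members, and Nr4a3, Fos, Jun and Myc had no entry in the table used. A match describes letters in this window and no measured binding.

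Values are log2 intensities after the authors' RMA processing, and changes are differences of group means on that scale with ± their standard error. A change counts as called where limma gave an adjusted p under 0.05, with Benjamini-Hochberg adjustment over 14217 genes and n = 3 arrays per group. Over all arrays the lower quartile of values was 3.84, the median 5.52 and the upper quartile 8.07, and arrays of a group correlated with r between 0.992 and 0.998. All 8 measured markers of beta cells lay above the median of all values, with means from 8.38 to 14.54, led by Ins1 and Ins2. Markers of leukocytes (0 of 5 above the median), fibroblasts (0 of 5) and exocrine or ductal cells (0 of 4) stayed below it. Endothelial markers had 1 of 3 above it (Kdr at 5.60), with Pecam1 at 3.28 and Tek at 3.42, and other islet endocrine markers had 1 of 4 (Gcg at 10.14), with Sst, Ppy and Ghrl between 3.76 and 4.19. No marker was at 0, since RMA values do not reach 0.

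Levels of the members ranged widely across the 8 groups. The span between the highest and lowest group mean was 2.90 for Egr1, 2.83 for Fos, 2.71 for Jun, 2.53 for Myc, 2.45 for Nr4a1 and 2.35 for Junb. Nr4a3 spanned 1.61, Nr4a2 1.11 and Fosl1 0.31, against a median span of 0.51 over all genes. Egr1 thus spanned more than 98.4% of genes and Fosl1 more than 25.05%. Members were chosen with earlier results of these data known, so wide spans among them follow in part from the choice. Fosl1 group means lay between 4.27 and 4.57, below the median of all values, and none of its 13 comparisons was called.

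**Figure D1:**
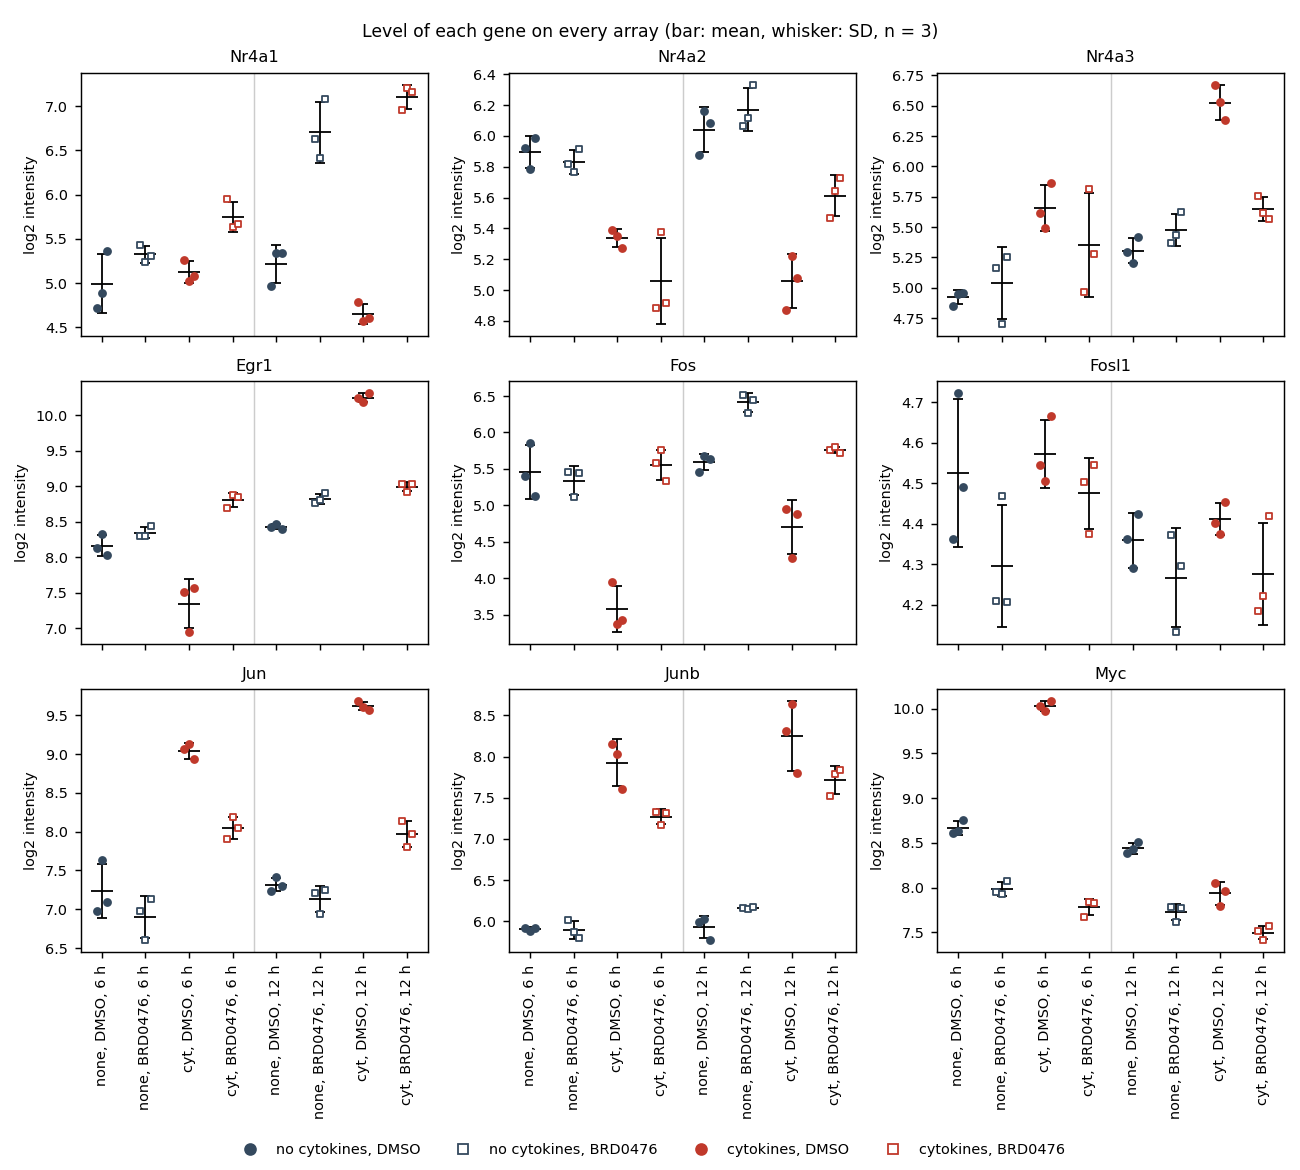
Log2 intensity of the 9 genes on each of the 24 arrays, by group (6 h left of the grey line, 12 h right of it; none, no cytokines; cyt, cytokines), with the mean and SD of 3 arrays per group and a separate y axis for each gene. Jun, Junb and Nr4a3 are highest with cytokines in DMSO at 12 h, Myc at 6 h, and Nr4a1 with BRD0476 at 12 h.

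Cytokines in DMSO, compared with DMSO alone, raised Jun and Junb at both times and lowered Fos and Nr4a2 at both times. Egr1 fell at 6 h and rose at 12 h, and Myc did the reverse. Nr4a3 rose at both times and Nr4a1 fell at 12 h. At 6 h 4 of the 9 members rose and 3 fell, where 24.3% of all genes rose and 27.4% fell. At 12 h 4 rose and 4 fell, where 16.0% of genes rose and 29.9% fell. The median size of the members' changes was 0.82 at 6 h and 0.98 at 12 h, against 0.26 and 0.22 over all genes. Since the members were chosen with earlier results of these data known, these sizes and counts are a description and not a test. All members called here had the 3 cytokine arrays beyond the 3 DMSO arrays. How often called genes in general were separated in this way was not counted. With bulk RNA, fewer cells of a type and less RNA per cell cannot be told apart.

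Jun, the AP-1 subunit that can pair with itself, read 6.98, 7.63 and 7.09 on the DMSO arrays at 6 h and 9.07, 9.13 and 8.93 with cytokines. At 12 h it read 7.24, 7.41 and 7.30 without and 9.68, 9.61 and 9.56 with cytokines. The groups were far apart at both times. Jun rose by 1.81 ± 0.15 at 6 h (3.50-fold, adjusted p = 1.02e-09) and by 2.30 ± 0.15 at 12 h (4.93-fold, adjusted p = 2.90e-11). Junb, a weaker transactivator that can restrain Jun, read 5.92, 5.88 and 5.92 in DMSO at 6 h and 8.15, 8.03 and 7.61 with cytokines. At 12 h Junb read 5.99, 6.03 and 5.77 without and 8.31, 8.64 and 7.80 with cytokines. The cytokine arrays of Junb were more scattered than those of Jun but none came near the DMSO arrays. Junb rose by 2.02 ± 0.15 at 6 h (adjusted p = 3.82e-10) and by 2.32 ± 0.15 at 12 h (adjusted p = 6.01e-11).

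Fos, the partner of the Jun proteins, went the other way. It read 5.40, 5.86 and 5.13 in DMSO at 6 h and 3.95, 3.37 and 3.43 with cytokines. At 12 h Fos read 5.46, 5.67 and 5.63 without and 4.94, 4.28 and 4.88 with cytokines. The cytokine mean at 6 h, 3.58, lies below the lower quartile of all values, so the size of that fall may be understated. Fos fell by 1.88 ± 0.19 at 6 h (adjusted p = 2.00e-08) and by 0.89 ± 0.19 at 12 h (adjusted p = 0.000427). Fosl1, an AP-1 subunit usually induced later than Fos, changed by 0.05 ± 0.09 at 6 h (95% interval -0.15 to 0.24) and by 0.05 ± 0.09 at 12 h (-0.15 to 0.25).

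Egr1 read 8.13, 8.33 and 8.03 in DMSO at 6 h and 7.51, 6.95 and 7.57 with cytokines. At 12 h the DMSO arrays read 8.43, 8.47 and 8.39 and the cytokine arrays 10.25, 10.18 and 10.31. The cytokine arrays of Egr1 were all below the DMSO arrays at the earlier time and all above them at the later. Egr1 fell by 0.82 ± 0.11 at 6 h (1.77-fold lower, adjusted p = 3.11e-06) and rose by 1.82 ± 0.11 at 12 h (3.52-fold, adjusted p = 2.60e-11). The difference between these changes, 2.64 ± 0.16, was called (adjusted p = 1.99e-10).

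Myc read 8.61, 8.63 and 8.76 in DMSO at 6 h and 10.03, 9.98 and 10.08 with cytokines. At 12 h it read 8.38, 8.43 and 8.50 without and 8.05, 7.79 and 7.96 with cytokines. Myc arrays of a group lay close together, and the cytokine arrays passed from above the DMSO arrays to below them. Myc rose by 1.36 ± 0.08 at 6 h (2.57-fold, adjusted p = 2.01e-12) and fell by 0.51 ± 0.08 at 12 h (adjusted p = 9.16e-06). The difference between these changes, -1.87 ± 0.11, was called (adjusted p = 6.17e-11).

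Among the NR4A genes the 3 members did not move together. Nr4a1, the most studied of the family in beta cells, read 4.72, 4.89 and 5.37 in DMSO and 5.27, 5.03 and 5.09 with cytokines at 6 h, where the arrays overlapped. At 12 h it read 4.97, 5.34 and 5.34 without and 4.78, 4.58 and 4.61 with cytokines. Nr4a1 changed by 0.13 ± 0.16 at 6 h (adjusted p = 0.525) and fell by 0.56 ± 0.16 at 12 h (adjusted p = 0.00641). Nr4a2 read 5.79 to 5.99 in DMSO and 5.27 to 5.39 with cytokines at 6 h, and 5.88 to 6.16 against 4.87 to 5.22 at 12 h. Nr4a2, whose cytokine arrays were all the lower ones, fell by 0.56 ± 0.12 at 6 h (adjusted p = 0.000427) and by 0.98 ± 0.12 at 12 h (adjusted p = 6.23e-07). Nr4a3 read 4.85, 4.95 and 4.96 in DMSO and 5.62, 5.49 and 5.87 with cytokines at 6 h. At 12 h Nr4a3 read 5.30, 5.21 and 5.42 without and 6.67, 6.53 and 6.38 with cytokines. All its cytokine arrays were the higher ones at both times. Nr4a3 rose by 0.74 ± 0.16 (adjusted p = 0.000583) and by 1.22 ± 0.16 (adjusted p = 2.31e-06).

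The summed marker lists of beta cells and of 2 other cell types moved with cytokines in DMSO, the latter 2 through Kdr and Gcg. The remaining measured markers of those 2 lists lay below the median of all values. INS-1E is a clonal line, so these sums describe genes and count no cells. The beta-cell list summed to 76610 to 77750 in linear intensity with cytokines at 6 h, against 85540 to 94380 without. At 12 h it summed to 82920 to 85200 with cytokines, against 89160 to 93330 without. The summed linear intensity of the endothelial list was 36.9 to 43.0 with cytokines against 66.6 to 91.2 without at 6 h, and 39.8 to 46.5 against 102 to 109 at 12 h, carried by Kdr. That of the other islet endocrine list was 656 to 715 against 1177 to 1438 at 6 h and 926 to 1103 against 1243 to 1449 at 12 h, carried by Gcg. Their part in the members' changes was not tested.

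With cytokines present, the BRD0476 change was opposite in sign to the cytokine change in DMSO for Egr1, Fos, Jun, Junb and Nr4a3 at both times, for Myc at 6 h, and for Nr4a1 and Nr4a2 at 12 h. Of these, Nr4a3 at 6 h was not called with BRD0476. Myc at 12 h went the same way in both, falling with cytokines and again with BRD0476, and at 6 h so did Nr4a1 (0.13 and 0.62) and Nr4a2 (-0.56 and -0.28). Egr1 was higher than in DMSO at 6 h and lower at 12 h, Fos was higher and Jun, Junb and Myc lower at both times, and Nr4a1 was higher at both times. At 6 h 3 members rose and 3 fell, where 24.7% of genes rose and 19.4% fell. At 12 h 3 rose and 5 fell, where 16.3% of genes rose and 10.6% fell. The median size of the members' changes was 0.66 at 6 h and 0.88 at 12 h, against 0.21 and 0.14 over all genes, again a description of members chosen with earlier results known. Both contrasts use the same 3 arrays with cytokines in DMSO at each time, so opposite signs in them are not independent. The endothelial list summed to 72.1 to 83.9 with cytokines and BRD0476 at 6 h and 76.6 to 83.0 at 12 h, above the cytokine arrays in DMSO, and the other islet endocrine list to 1183 to 1231 and 996 to 1229. The beta-cell list summed to 89110 to 90250 and 90070 to 93190 in these groups, also above the cytokine arrays in DMSO. Their part in these changes was not tested either.

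Myc showed the largest fall. Its arrays with cytokines and BRD0476 read 7.67, 7.84 and 7.83 at 6 h and 7.51, 7.42 and 7.57 at 12 h, all below the cytokine arrays in DMSO. Myc fell by 2.25 ± 0.08 at 6 h (4.75-fold lower, adjusted p = 3.39e-15) and by 0.44 ± 0.08 at 12 h (adjusted p = 0.000121). Egr1 read 8.70, 8.88 and 8.84 with BRD0476 at 6 h, above its cytokine arrays in DMSO, and 9.03, 8.92 and 9.03 at 12 h, below them. Egr1 rose by 1.46 ± 0.11 at 6 h (2.76-fold, adjusted p = 1.41e-09) and fell by 1.25 ± 0.11 at 12 h (2.38-fold lower, adjusted p = 2.75e-08). With BRD0476, Egr1 therefore stayed between 8.70 and 9.03 at both times while in DMSO it passed from 6.95 to 10.31.

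Among AP-1 genes, Jun read 7.91, 8.19 and 8.05 with cytokines and BRD0476 at 6 h and 8.14, 7.80 and 7.96 at 12 h. These arrays lay below the cytokine arrays in DMSO and above every array without cytokines. Jun fell by 0.99 ± 0.15 at 6 h (adjusted p = 9.20e-06) and by 1.65 ± 0.15 at 12 h (3.14-fold lower, adjusted p = 1.72e-08). Junb read 7.32, 7.17 and 7.32 with BRD0476 at 6 h and 7.52, 7.79 and 7.84 at 12 h. Junb fell by 0.66 ± 0.15 at 6 h (adjusted p = 0.00128) and by 0.53 ± 0.15 at 12 h (adjusted p = 0.0129), where the arrays overlapped at 7.80. The 12 h call of Junb was lost without replicate 2 with cytokines in DMSO (-0.34, adjusted p = 0.109), without replicate 1 with cytokines and BRD0476 (-0.43, adjusted p = 0.0737) and in a fit with only the arrays compared (adjusted p = 0.118). Fos read 5.58, 5.75 and 5.34 with BRD0476 at 6 h and 5.76, 5.80 and 5.72 at 12 h, within or just above the range of the DMSO arrays without cytokines. Fos rose by 1.97 ± 0.19 at 6 h (adjusted p = 2.03e-08), a size measured against the same dim group mean of 3.58 and possibly understated, and by 1.06 ± 0.19 at 12 h (adjusted p = 0.000144). Fosl1 changed by -0.10 ± 0.09 and -0.14 ± 0.09 (adjusted p = 0.444 and 0.338).

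Nr4a1 read 5.95, 5.63 and 5.67 with cytokines and BRD0476 at 6 h and 6.96, 7.20 and 7.16 at 12 h. The 12 h arrays stood far above the 4.58 to 4.78 of cytokines in DMSO. Nr4a1 rose by 0.62 ± 0.16 at 6 h (adjusted p = 0.00307) and by 2.45 ± 0.16 at 12 h (5.47-fold, adjusted p = 1.77e-10). Nr4a2 read 4.88, 5.38 and 4.91 at 6 h and 5.46, 5.64 and 5.73 at 12 h. Its 6 h change was -0.28 ± 0.12 (adjusted p = 0.0638), with replicate 2 within the DMSO arrays and the others below them, and its 12 h rise was 0.56 ± 0.12 (adjusted p = 0.00120), a rise that was not called when the probe sets of Nr4a2 were averaged (0.24, adjusted p = 0.103). Nr4a3 read 4.97, 5.81 and 5.28 at 6 h and 5.76, 5.62 and 5.57 at 12 h. It changed by -0.31 ± 0.16 at 6 h (adjusted p = 0.140) and fell by 0.88 ± 0.16 at 12 h (adjusted p = 0.000272). The array of replicate 2 with cytokines and BRD0476 at 6 h was the highest of its group for both Nr4a2 and Nr4a3. Without it, with 2 arrays left in that group, the 6 h changes were -0.44 (adjusted p = 0.00290) and -0.54 (adjusted p = 0.00512), which pass the threshold. Leaving out the highest array of the lower group enlarges a fall by construction, so these values add no support for one. The other probe set of Nr4a2, 1387410_at, had 0.22 in this contrast on all arrays (adjusted p = 0.254 over all probe sets).

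**Figure D2:**
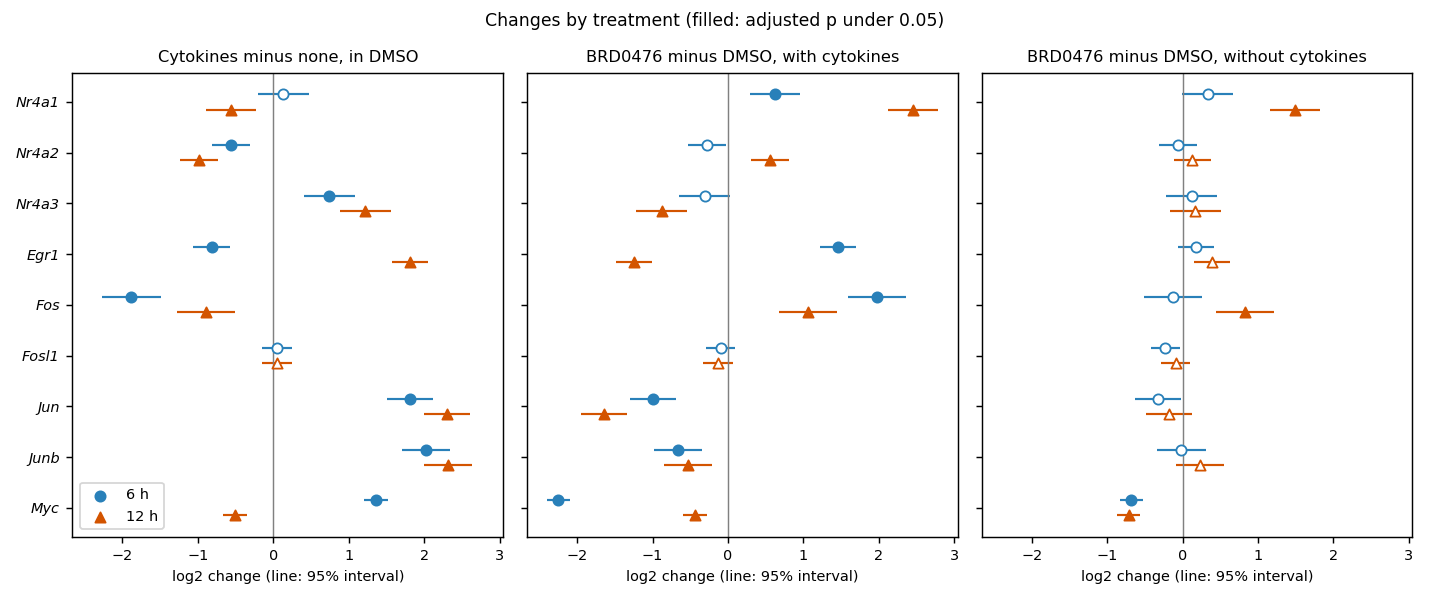
Log2 changes of the 9 genes at 6 h (circles) and 12 h (triangles) for cytokines in DMSO, for BRD0476 with cytokines and for BRD0476 without cytokines, with lines for 95% intervals and filled symbols for adjusted p under 0.05. The left and middle panels share the arrays with cytokines in DMSO, and Myc at 6 h goes from 1.36 in the left panel to -2.25 in the middle one.

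Without cytokines BRD0476 changed fewer members. Myc was lower at both times, and Nr4a1 and Fos were higher at 12 h. At 6 h 0 members rose and 1 fell, where 1.68% of genes rose and 1.85% fell. Without adjustment 3 members had p under 0.05 at 6 h, as did 15.1% of all genes. At 12 h 2 members rose and 1 fell, where 2.02% of genes rose and 2.64% fell.

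Myc read 7.95, 7.93 and 8.08 with BRD0476 at 6 h and 7.79, 7.62 and 7.77 at 12 h. Every one of these arrays was below the DMSO arrays of its time. Myc fell by 0.68 ± 0.08 at 6 h (1.60-fold lower, adjusted p = 1.64e-05) and by 0.72 ± 0.08 at 12 h (1.64-fold lower, adjusted p = 3.41e-06). Nr4a1 read 5.43, 5.24 and 5.31 with BRD0476 at 6 h, overlapping DMSO, and 6.63, 6.41 and 7.08 at 12 h, all above DMSO. Nr4a1 changed by 0.33 ± 0.16 at 6 h (adjusted p = 0.336) and rose by 1.49 ± 0.16 at 12 h (2.81-fold, adjusted p = 5.14e-06). Fos read 6.51, 6.27 and 6.45 with BRD0476 at 12 h, its highest group. Fos rose there by 0.82 ± 0.19 (adjusted p = 0.0108), and the call was lost without replicate 1 of DMSO (0.76, adjusted p = 0.0620) or replicate 1 of BRD0476 (0.77, adjusted p = 0.0528). Egr1 read 8.76, 8.81 and 8.90 with BRD0476 at 12 h, all above DMSO, for a change of 0.39 ± 0.11 that missed the threshold (adjusted p = 0.0556). The other members had adjusted p between 0.231 and 0.983. For Jun this depended on the probe set. One not used here, 1369788_s_at, fell by 0.43 at 6 h and 0.29 at 12 h (adjusted p = 0.00121 and 0.0220 over all probe sets), and the remaining set was not called.

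In BRD0476, cytokines against none called 3 members up and 1 down at 6 h, where 10.3% of genes rose and 10.7% fell, and 2 up and 3 down at 12 h, where 9.19% rose and 18.5% fell. Jun and Junb still rose, Jun by 1.14 ± 0.15 and 0.84 ± 0.15 and Junb by 1.38 ± 0.15 and 1.56 ± 0.15 at 6 and 12 h. Nr4a2 still fell, by 0.78 ± 0.12 at 6 h (adjusted p = 4.28e-05) and by 0.56 ± 0.12 at 12 h (adjusted p = 0.00113). Egr1 rose by 0.46 ± 0.11 at 6 h (adjusted p = 0.00494) and changed by 0.17 ± 0.11 at 12 h (95% interval -0.07 to 0.41). Myc changed by -0.21 ± 0.08 at 6 h (adjusted p = 0.0574) and fell by 0.23 ± 0.08 at 12 h (adjusted p = 0.0275), a call lost without replicate 1 or 3 of BRD0476 alone or replicate 2 of cytokines with BRD0476 (adjusted p from 0.0906 to 0.129), and with only the compared arrays fitted (adjusted p = 0.0632). Fos changed by 0.22 ± 0.19 at 6 h (adjusted p = 0.487) and fell by 0.65 ± 0.19 at 12 h (adjusted p = 0.0110). Nr4a1 changed by 0.42 ± 0.16 at 6 h and by 0.40 ± 0.16 at 12 h (adjusted p = 0.0674 and 0.0715). Nr4a3 depended on the probe set: the one used here changed by 0.31 ± 0.16 and 0.17 ± 0.16 (adjusted p = 0.205 and 0.484), whereas 1369067_at rose by 1.34 ± 0.15 at 6 h (adjusted p = 6.56e-07) and by 0.45 ± 0.15 at 12 h (adjusted p = 0.0302). With the probe sets of Nr4a3 averaged, the 6 h rise was 0.53 (adjusted p = 7.82e-05). That mean takes in 1369217_at, which had -0.055 and was not called, so it rests mainly on 1369067_at.

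The interaction tests whether the cytokine change differs between BRD0476 and DMSO, and equally whether the BRD0476 change differs with and without cytokines. At 6 h it was called for 5 members, 2 up and 3 down, where 33.2% of genes were called in either direction. Fos stood at 2.10 ± 0.26 (adjusted p = 2.42e-06), a value that also rests on its dim group, Myc at -1.57 ± 0.11 (adjusted p = 5.38e-10) and Egr1 at 1.28 ± 0.16 (adjusted p = 2.88e-06). Jun at -0.67 ± 0.21 (adjusted p = 0.0166) and Junb at -0.64 ± 0.22 (adjusted p = 0.0264) were called too. The Jun call was lost without replicate 1 of DMSO or replicate 3 of BRD0476, both without cytokines (adjusted p = 0.0558 and 0.0542), and with only the compared arrays fitted (adjusted p = 0.0527), but both other probe sets of Jun were called (adjusted p = 0.000206 and 3.88e-05 over all probe sets). The Junb call was lost without replicate 1 of BRD0476 alone, replicate 1 or 2 of cytokines in DMSO, or replicate 2 of cytokines with BRD0476 (adjusted p from 0.0626 to 0.0798). Nr4a3 had -0.43 ± 0.23 and was not called (adjusted p = 0.171). Its set 1369067_at was called (-0.565, adjusted p = 0.0463 over all probe sets), as were its averaged probe sets (-0.38, adjusted p = 0.0215). The average takes in 1369217_at, which had -0.137 and was not called. Nr4a3 was also called without replicate 2 of BRD0476 alone (adjusted p = 0.0484) or replicate 2 of cytokines with BRD0476 (adjusted p = 0.0137). The latter array was the highest of its group, so leaving it out lowers the value by construction.

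At 12 h the interaction was called for 5 members, 1 up and 4 down, where 15.3% of genes were called in either direction. Egr1 stood at -1.64 ± 0.16 (adjusted p = 2.02e-07), Jun at -1.46 ± 0.21 (adjusted p = 2.31e-05) and Nr4a3 at -1.05 ± 0.23 (adjusted p = 0.00261). Nr4a1 was the member called upward, at 0.96 ± 0.23 (adjusted p = 0.00483). Its arrays were low with cytokines in DMSO and high with BRD0476 whether cytokines were present or not. Junb stood at -0.76 ± 0.22 (adjusted p = 0.0193), and lost its call without replicate 3 of DMSO alone, replicate 2 of cytokines in DMSO or replicate 1 of cytokines with BRD0476 (adjusted p from 0.0576 to 0.0627), and with only the compared arrays fitted (adjusted p = 0.0526). Fos, called at 6 h, had 0.24 ± 0.26 at 12 h (adjusted p = 0.667), and Myc had 0.28 ± 0.11 (adjusted p = 0.0856).

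**Figure D3:**
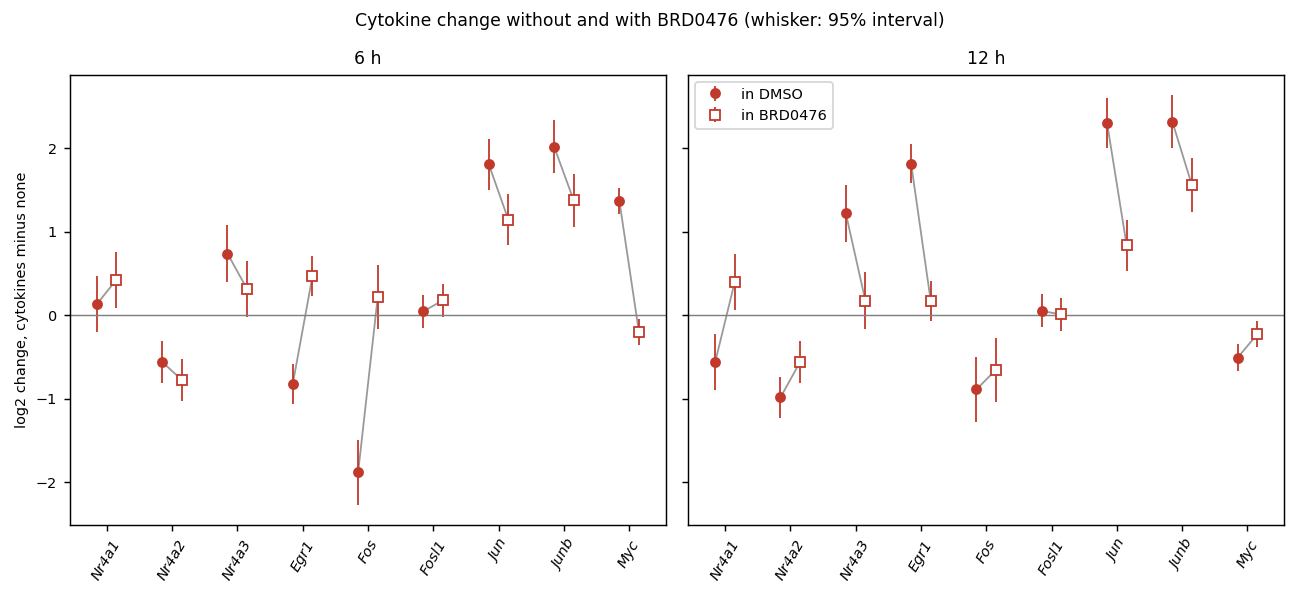
Log2 change with cytokines against none in DMSO (filled circles) and in BRD0476 (open squares) for the 9 genes at 6 h and 12 h, with 95% intervals, joined by a grey line for each gene. At 12 h Egr1 goes from 1.82 in DMSO to 0.17 in BRD0476, whereas Junb goes from 2.32 to 1.56.

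In DMSO without cytokines, 12 h against 6 h called 0 members with limma, where 1.67% of genes were called in either direction. Nr4a3, Egr1 and Myc had p under 0.05 before adjustment, with changes of 0.39 ± 0.16, 0.27 ± 0.11 and -0.23 ± 0.08, and adjusted p of 0.353, 0.364 and 0.184. Before adjustment 10.6% of all genes had p under 0.05. Egr1 (0.31, adjusted p = 0.0180) and Myc (-0.20, adjusted p = 0.0339) were called when arrays were weighted by their quality. With these weights 1545 genes in place of 238 were called over all genes, so the gain was not particular to these members.

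The cytokine change in DMSO differed between 12 and 6 h for 4 members, 2 up and 2 down, where 28.8% of genes were called in either direction. Beside Egr1 and Myc, these were Fos at 0.99 ± 0.26 (adjusted p = 0.00622) and Nr4a1 at -0.70 ± 0.23 (adjusted p = 0.0250). The Nr4a1 call was lost without replicate 1 or 2 of DMSO alone at 6 h, replicate 1 of cytokines in DMSO at 6 h, replicate 2 or 3 of DMSO alone at 12 h, or replicate 2 of cytokines in DMSO at 12 h (adjusted p from 0.0538 to 0.0801). Jun had 0.49 ± 0.21 and missed the threshold (adjusted p = 0.0822), but its probe sets 1369788_s_at and 1374404_at were called (0.74 and 0.46, adjusted p = 1.09e-05 and 0.0157). Jun was also called with its probe sets averaged (0.56, adjusted p = 0.000235), after quantile normalization (0.52, adjusted p = 0.0404) and without replicate 1 of DMSO alone at 6 h (0.62, adjusted p = 0.0312). The BRD0476 change with cytokines differed between the times for 6 members, 3 up and 3 down, where 25.0% of genes were called in either direction. Egr1 turned by -2.71 ± 0.16 (adjusted p = 3.46e-10), Myc by 1.81 ± 0.11 (adjusted p = 3.26e-10) and Nr4a1 by 1.83 ± 0.23 (adjusted p = 5.02e-06). Fos had -0.91 ± 0.26 (adjusted p = 0.0129), Jun -0.66 ± 0.21 (adjusted p = 0.0235) and Nr4a2 0.83 ± 0.17 (adjusted p = 0.000903). The Jun call was lost without replicate 2 of cytokines with BRD0476 at 6 h (adjusted p = 0.0640) or at 12 h (adjusted p = 0.0680). The value for Nr4a2 was 0.27 (adjusted p = 0.206) when its probe sets were averaged.

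The order of group levels set the members apart. Egr1 was highest with cytokines in DMSO at 12 h (mean 10.25) and lowest with cytokines in DMSO at 6 h (7.34), so that its extremes came from the same treatment. Its next groups, cytokines with BRD0476 at 12 h, BRD0476 alone at 12 h and cytokines with BRD0476 at 6 h, had means of 8.99, 8.82 and 8.81, and the arrays of the last 2 overlapped. Jun ran from cytokines in DMSO at 12 h through 6 h to cytokines with BRD0476, where 6 and 12 h overlapped, and then to the 4 groups without cytokines, whose neighbours all overlapped. Junb was also highest with cytokines in DMSO at 12 h and then 6 h, followed by cytokines with BRD0476 at 12 h, each overlapping the next. Its level with cytokines and BRD0476 at 6 h lay below these without overlap, and the 4 groups without cytokines came last, led by BRD0476 alone at 12 h. Fos was highest with BRD0476 alone at 12 h (6.41), and its lowest groups were both groups with cytokines in DMSO. Nr4a1 was highest in both groups with BRD0476 at 12 h, which overlapped each other, then with cytokines and BRD0476 at 6 h. For Myc, cytokines in DMSO at 6 h (10.03) stood above all others, followed by DMSO alone at 6 h and at 12 h without overlap. All neighbours of Fosl1 overlapped.

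Several members have more than 1 probe set, and these did not always move alike. All 3 probe sets of Jun moved together (r from 0.977 to 0.986 over 24 arrays), and 2 of them carry the maker's suffix for sets that can match several transcripts. Only 1369788_s_at of Jun was called with BRD0476 without cytokines, where it fell by 0.43 ± 0.07 at 6 h (adjusted p = 0.00121) and by 0.29 ± 0.07 at 12 h (adjusted p = 0.0220). For Fos, 1371283_at stayed between 3.86 and 4.04 in group means, near the lower quartile of all values, and was called in no comparison, while 1375043_at, used here, carried the changes (r = -0.36 between them). For Nr4a3, 1369067_at rose further with cytokines in DMSO than the set used here, by 1.90 ± 0.15 at 6 h and 1.87 ± 0.15 at 12 h, and fell with BRD0476 at both times, by 0.96 ± 0.15 (adjusted p = 1.73e-05) and 0.91 ± 0.15 (adjusted p = 7.61e-05). The third set of Nr4a3, 1369217_at, spanned 0.27. For Nr4a2, 1387410_at was dim, with group means from 3.41 to 4.08 around the lower quartile of all values. It was lower with cytokines in DMSO at 6 h (adjusted p = 0.000442) and not called at 12 h or with BRD0476. The Nr4a2 changes at 12 h are thus those of 1369007_at, and averaging the probe sets mixes it with the dim one. The 2 sets also disagreed on how the cytokine change in DMSO differed between 12 and 6 h. There 1387410_at was called upward (0.65, adjusted p = 0.0214), whereas 1369007_at had -0.43 (adjusted p = 0.0760). These p-values were adjusted over all 20826 probe sets.

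**Figure D4:**
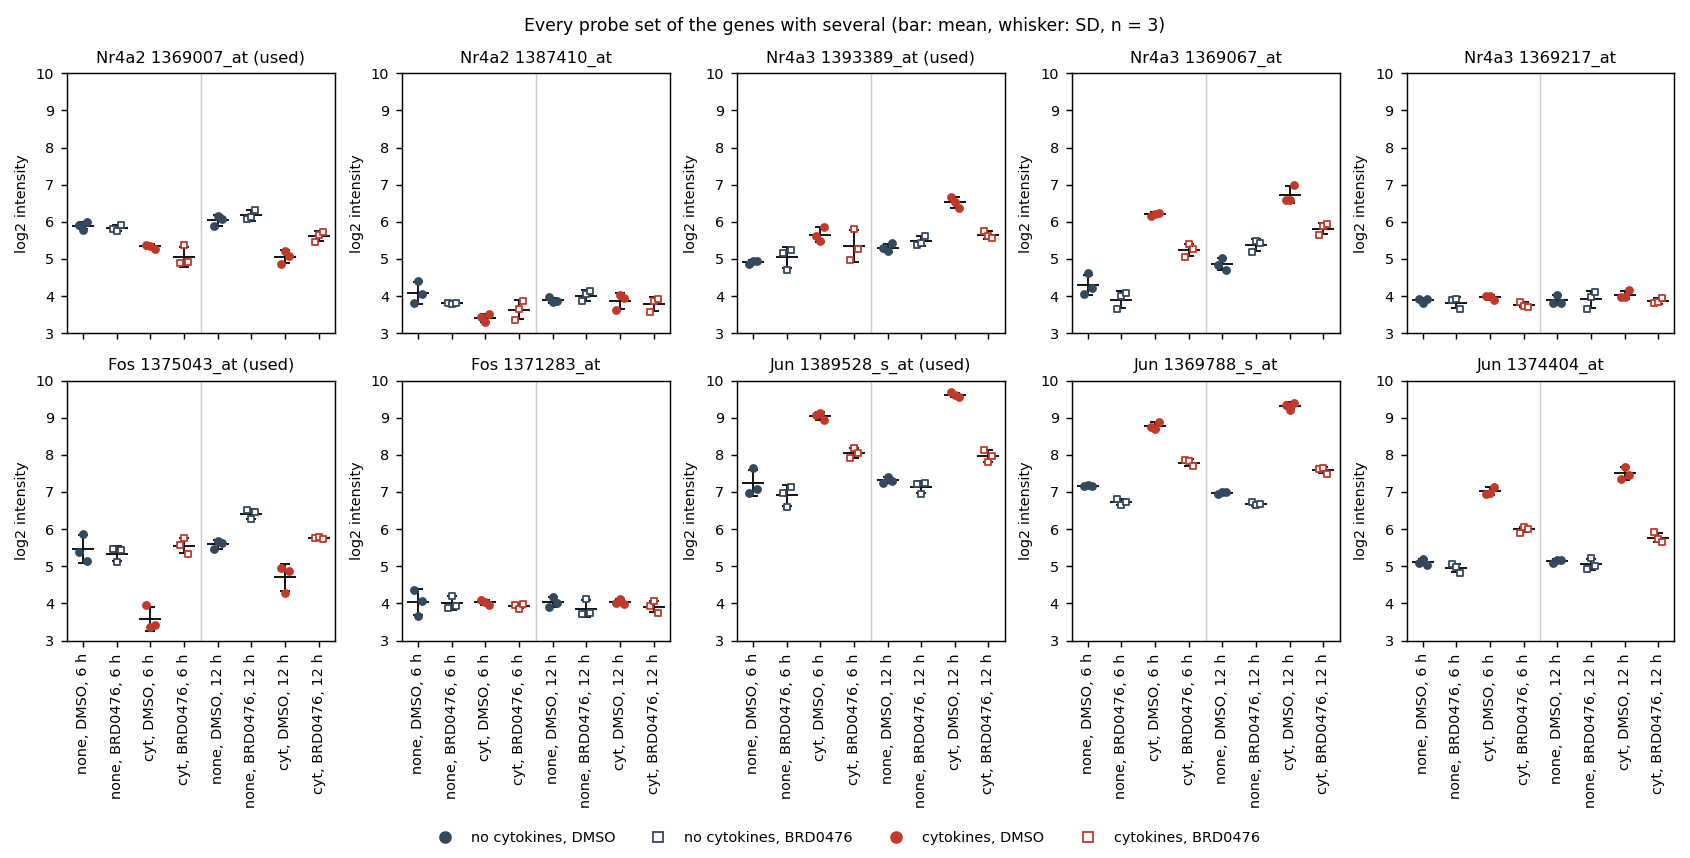
Log2 intensity on the 24 arrays for each probe set of Nr4a2, Nr4a3, Fos and Jun, on 1 shared y axis, with the mean and SD of 3 arrays per group (none, no cytokines; cyt, cytokines). The 3 Jun sets share their pattern, whereas 1371283_at of Fos and 1369217_at of Nr4a3 stay flat near 4.

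Over the 24 arrays, Jun and Junb had r = 0.90 and Jun and Nr4a3 had r = 0.82. Fos and Myc had r = -0.76, Egr1 and Myc r = -0.71, and Nr4a2 and Junb r = -0.78. Nr4a1 was closest to Fos (r = 0.59) and had r of 0.30 with Nr4a2 and -0.10 with Nr4a3. These correlations are a description: the arrays share their treatments, so the values carry the group means. Among 2761 other genes with a span of at least 1, those most like Jun were Rnd3 (r = 0.99), Cttnbp2nl (0.98) and Ifitm1 (0.98). Junb was most like Relt, Nfkb1 and Icam1 (0.98 each), of which Nfkb1 encodes an NF-kappaB subunit and Icam1 a cytokine-induced adhesion molecule. Nr4a3 was most like Max (0.91), Igf1 (0.91) and Il10rb (0.91), and Nr4a2 most like Zfp652 (0.91), Btbd3 (0.91) and Igfbp1 (0.90). Egr1 was most like Edem1 (0.94), Nudt13 (0.92) and Zxdc (0.91), Fos most like Pspc1 (0.96), Taf11l1 (0.95) and Ripply3 (0.94), and Myc most like Klhl24 (0.93), Oser1 (0.92) and H1f2 (0.92). Nr4a1 had no closer gene than Gpr176 (0.83), Tspan12 (0.80) and Cpne5 (0.77), and Fosl1 none closer than Arhgap6, Negr1 and Sdad1 (0.65 each).

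The partners, regulators and targets of the members were read in 8 lists of 126 genes, of which 112 were measured. In all, 49 rose and 27 fell with cytokines in DMSO at 6 h, 33 rose and 29 fell at 12 h, 17 rose and 47 fell with BRD0476 under cytokines at 6 h, and 17 rose and 22 fell at 12 h. As shares of the 112 these were 43.8% up and 24.1% down with cytokines at 6 h and 29.5% and 25.9% at 12 h, where 24.3% and 27.4%, and 16.0% and 29.9%, of all genes were called. With BRD0476 they were 15.2% up and 42.0% down at 6 h and 15.2% and 19.6% at 12 h, where 24.7% and 19.4%, and 16.3% and 10.6%, of all genes were called. The falls with cytokines and the rises with BRD0476 were thus near or below the share of all genes, and the counts of each list below stand against the same shares. The lists were chosen with earlier results of these data known, and genes are named for the largest called changes in these contrasts. Both contrasts use the same arrays with cytokines in DMSO, so opposite signs in them are not independent, for the lists or for the genes named. Among 11 AP-1 and bZIP partners, 8 rose and 1 fell with cytokines at 6 h (median 0.79, all genes 0.00), and 1 rose and 9 fell with BRD0476 (median -0.64). At 12 h 5 rose and 2 fell with cytokines, and 2 rose and 3 fell with BRD0476. Atf3, a stress-induced partner of Jun, rose by 3.87 ± 0.19 and 3.98 ± 0.19 with cytokines and fell by 2.40 ± 0.19 and 3.35 ± 0.19 with BRD0476 at 6 and 12 h. Maff, a small Maf protein, rose by 4.03 ± 0.14 and 2.83 ± 0.14 with cytokines and fell by 2.55 ± 0.14 with BRD0476 at 6 h. Crem, a cAMP-responsive factor, went the way of Fos: it fell by 1.91 ± 0.08 and 1.97 ± 0.08 with cytokines and rose by 1.61 ± 0.08 and 1.65 ± 0.08 with BRD0476, with all 6 probe sets of the same sign.

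Of 5 EGR family genes and NAB corepressors, 2 rose and 1 fell with cytokines at 6 h and 3 rose and 1 fell at 12 h. With BRD0476, 0 rose and 1 fell at 6 h and 1 rose and 1 fell at 12 h. Egr2, a close relative of Egr1, rose by 1.12 ± 0.13 with cytokines at 12 h and fell by 1.13 ± 0.13 with BRD0476, whereas its 6 h changes were -0.07 ± 0.13 and 0.09 ± 0.13. Nab2, a corepressor of Egr1 and itself an Egr1 target, rose by 1.07 ± 0.17 with cytokines at 6 h, when Egr1 was low, and fell by 1.10 ± 0.17 with BRD0476. Nab1 rose by 0.81 ± 0.12 and 0.70 ± 0.12 with cytokines. Egr4 rose by 0.83 ± 0.12 with BRD0476 at 12 h in 1 of its 2 probe sets. Of 12 measured MAP kinase phosphatases and feedback genes, 2 rose and 6 fell with cytokines at 6 h and 1 rose and 4 fell at 12 h. With BRD0476, 4 rose and 3 fell at 6 h and 2 rose and 0 fell at 12 h. Their shares with cytokines were 16.7% up and 50.0% down at 6 h and 8.3% and 33.3% at 12 h. Dusp5 and Dusp6, ERK phosphatases that are themselves induced by ERK, had the 6 h pattern of Egr1 and Fos. Dusp5 fell by 1.52 ± 0.14 with cytokines and rose by 1.97 ± 0.14 with BRD0476, and Dusp6 fell by 1.08 ± 0.10 and rose by 1.12 ± 0.10. At 12 h neither was called in either comparison, Dusp5 at 0.08 ± 0.14 and 0.32 ± 0.14 and Dusp6 at -0.05 ± 0.10 and 0.00 ± 0.10. Dusp14 fell by 1.18 ± 0.08 and 1.12 ± 0.08 with cytokines and rose by 0.76 ± 0.08 with BRD0476 at 12 h. Dusp10 rose by 1.66 ± 0.55 with cytokines at 12 h (adjusted p = 0.0168), a call lost without replicate 1 or 2 of cytokines in DMSO (adjusted p = 0.0743 and 0.115). Spry2, an inhibitor of growth factor signalling, rose by 0.48 ± 0.14 with BRD0476 at 12 h (adjusted p = 0.0169), a call lost without replicate 2 of cytokines in DMSO or replicate 1 or 3 of cytokines with BRD0476 (adjusted p from 0.0569 to 0.0974) and with array weights (adjusted p = 0.105).

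Of 15 measured MAP kinases and their kinases, 5 rose and 6 fell with cytokines at 6 h, 6 rose and 3 fell at 12 h, 5 rose and 4 fell with BRD0476 at 6 h, and 0 rose and 1 fell at 12 h. Their shares with cytokines were 33.3% up and 40.0% down at 6 h and 40.0% and 20.0% at 12 h. Map3k8, the kinase that links NF-kappaB signalling to ERK, rose by 3.06 ± 0.13 and 3.37 ± 0.13 with cytokines and fell by 0.69 ± 0.13 and 1.57 ± 0.13 with BRD0476. Mapkapk2, a kinase downstream of p38, rose by 1.44 ± 0.10 with cytokines at 6 h, Mapk11, which encodes a p38 kinase, by 1.36 ± 0.11 at 12 h, and Map2k3, a kinase upstream of p38, by 1.17 ± 0.06 with BRD0476 at 6 h. Of 20 measured genes of the MYC network and its targets, 6 rose and 8 fell with cytokines at 6 h, 3 rose and 8 fell at 12 h, 4 rose and 5 fell with BRD0476 at 6 h, and 7 rose and 3 fell at 12 h. Of the MYC network, 30.0% rose and 40.0% fell with cytokines at 6 h, and 20.0% rose and 25.0% fell with BRD0476. Max, the obligate partner of Myc, rose by 0.69 ± 0.07 and 1.21 ± 0.07 with cytokines and fell by 0.57 ± 0.07 and 0.91 ± 0.07 with BRD0476. Mxd1 and Mnt, which compete with Myc for Max, fell by 1.64 ± 0.11 and 1.31 ± 0.10 with BRD0476 at 6 h, the contrast in which Myc itself fell most. Mxd1 had risen by 1.57 ± 0.11 with cytokines at 6 h, whereas Mxd3 fell by 1.10 ± 0.12 at 6 h and by 1.34 ± 0.12 at 12 h and Mxi1 fell by 1.26 ± 0.06 at 12 h. Mycl rose by 0.69 ± 0.07 with BRD0476 at 12 h.

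Of 16 other immediate early transcription factors, 8 rose and 2 fell with cytokines at 6 h, 5 rose and 5 fell at 12 h, 3 rose and 8 fell with BRD0476 at 6 h, and 1 rose and 4 fell at 12 h. Id2 and Id3, inhibitors of bHLH factors, had the 6 h pattern of Myc: they rose by 1.21 ± 0.11 and 1.68 ± 0.12 with cytokines, and with BRD0476 Id2 fell by 2.04 ± 0.11 and Id3 fell by 2.65 ± 0.12. Id3 fell by 0.92 ± 0.12 at 12 h, and Klf6 fell by 1.52 ± 0.11 there. Ier3 rose by 1.89 ± 0.08 with cytokines at 12 h, and Ier5 by 0.73 ± 0.08 in 1 of its 3 probe sets (0.22, adjusted p = 0.0959, with the 3 averaged). Of 15 measured immediate early genes of RNA decay and growth control, 10 rose and 0 fell with cytokines at 6 h (median 0.98), 8 rose and 1 fell at 12 h, 0 rose and 9 fell with BRD0476 at 6 h, and 1 rose and 8 fell at 12 h. Gadd45b, a growth arrest gene, rose by 3.83 ± 0.11 and 3.19 ± 0.11 with cytokines and fell by 1.84 ± 0.11 and 1.14 ± 0.11 with BRD0476. Tnfaip3, an inhibitor of NF-kappaB signalling, rose by 2.99 ± 0.12 and 3.23 ± 0.12, and the RNA decay factors Zfp36l2 and Zfp36 fell by 1.29 ± 0.08 at 6 h and by 1.36 ± 0.31 at 12 h with BRD0476. Of 18 nuclear receptors outside the NR4A family, 8 rose and 3 fell with cytokines at 6 h, 2 rose and 5 fell at 12 h, 0 rose and 8 fell with BRD0476 at 6 h, and 3 rose and 2 fell at 12 h. Their shares with cytokines were 44.4% up and 16.7% down at 6 h and 11.1% and 27.8% at 12 h. Nr1d1, a circadian repressor, rose by 4.09 ± 0.25 with cytokines at 6 h and fell by 3.59 ± 0.25 with BRD0476. Ppard, a fatty acid receptor, rose by 1.31 ± 0.12 with cytokines at 12 h and fell by 0.61 ± 0.12 with BRD0476. Nr1h2, an oxysterol receptor, rose by 1.27 ± 0.17 with cytokines at 6 h and fell by 1.23 ± 0.17 with BRD0476 in 1 of its 2 probe sets. At 12 h it fell by 0.60 ± 0.17 with BRD0476 (adjusted p = 0.0103), a call lost without replicate 1 or 2 of cytokines in DMSO (adjusted p = 0.0507 and 0.0836), with both probe sets averaged (adjusted p = 0.0512) and with only the compared arrays fitted (adjusted p = 0.0975). Nr2f1 fell by 0.99 ± 0.10 with cytokines at 12 h. These lists are described by counts and medians and were given no test as groups.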

How the data were processed

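The authors deposited intensity values, 1 per probe set and array, which were made with RMA per the submitters' processing notes. Its version and the chip definition are not given in the sources used here. There are 31099 probe sets, including 57 controls. Linear values (5.185 to 24850) were taken to log2 with no other normalization. The platform annotation gave 20826 probe sets with 1 gene, and 436 with several genes and 9831 without a name were left out. Each of 14217 genes was read by its probe set of highest mean.

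In R 4.3.3, limma 3.58.1 fitted group means over all 24 arrays (16 residual degrees of freedom), with Benjamini-Hochberg adjustment over all genes. No replicate block was used: deviations of arrays with the same number correlated with a median of -0.042 over 84 pairs, against 0.008 for 168 pairs with different numbers. Members and gene lists were chosen with earlier results of these data known. Every member is named, with up to 2 called genes per list in each of 4 comparisons (and such a gene in the others) and the 3 most similar genes per member. Tested on simulated data for cytokines against none in DMSO at 6 h with 14217 genes, the fit recovered 7, 31, 50 and 48 of 50 genes changed by 0.25, 0.5, 1 and 2, with 7 false calls among 143. No other genes were changed in the simulation, whereas the real contrast called 51.7% of genes, so recovery there can differ. Promoters were read from RefSeq (GRCr8), and figures drawn with matplotlib 3.10.9.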

Additional observations from a re-analysis of the deposited data

Results flagged for a closer look

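For several members the cytokine change differed between BRD0476 and DMSO by a test of the difference itself. At 6 h this interaction was 1.28 for Egr1, 2.10 for Fos, -0.67 for Jun, -0.64 for Junb and -1.57 for Myc. At 12 h it was 0.96 for Nr4a1, -1.05 for Nr4a3, -1.64 for Egr1, -1.46 for Jun and -0.76 for Junb. Egr1 is the member called at both times with opposite signs.

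The cytokine change in DMSO differed between 12 and 6 h by -0.70 for Nr4a1, 2.64 for Egr1, 0.99 for Fos and -1.87 for Myc. The change with BRD0476 under cytokines differed between the times by 1.83 for Nr4a1, 0.83 for Nr4a2, -2.71 for Egr1, -0.91 for Fos, -0.66 for Jun and 1.81 for Myc. Both use the arrays with cytokines in DMSO, so their opposite signs are not independent.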

How the results depend on the processing

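Of 117 member results, recomputed as 1971 values under the alternatives, 0 reversed, 30 values lost their call and 41 gained one, in 28 results. The alternatives were centred arrays, quantile normalization, only the arrays compared, array weights, a replicate block, a robust prior with an intensity trend, averaged probe sets, a test over every probe set, a fit without 1765 dim genes, and each array left out in turn. The count of members called for BRD0476 without cytokines at 6 h went from 1 to 2 with the mean of probe sets (Jun, -0.31, adjusted p = 0.0199), and that for 12 against 6 h in DMSO from 0 to 2 with array weights. Egr1 with BRD0476 alone at 12 h was called under 6 alternatives (adjusted p from 0.00384 to 0.0491). With the replicate block, Nr4a2 with BRD0476 under cytokines at 6 h (-0.28, adjusted p = 0.0478), Myc with cytokines in BRD0476 at 6 h (-0.21, adjusted p = 0.0313) and the change of the Nr4a2 cytokine response with time (-0.43, adjusted p = 0.0491) passed the threshold, and no other call of a member changed. For that last change the dim probe set of Nr4a2, 1387410_at, had the opposite sign (0.65, adjusted p = 0.0214 over all probe sets). Over all genes, only the arrays compared gave 2379 calls in place of 3827 (BRD0476 with cytokines, 12 h), 108 in place of 502 (BRD0476 alone, 6 h) and 97 in place of 238 (12 against 6 h). Array weights gave 1123 in place of 502, 1929 in place of 663 (BRD0476 alone, 12 h), 6304 in place of 3938 (cytokines in BRD0476, 12 h) and 1545 in place of 238. Leaving out an array gave as few as 286, 360 and 132 calls in place of 502, 663 and 238. Alternatives for list genes were added after the data were seen: of 930 values, 11 lost their call (Ier5, Dusp10, Spry2 and Nr1h2), and of 480 list counts 19 moved by over 1.5 times, all but 1 of them with BRD0476 under cytokines at 12 h. There the phosphatase list went from 2 called to between 1 and 4, the MAP kinases from 1 to 2 or 3, the MYC network from 10 to 6 and the nuclear receptors from 5 to 3. The causes were not tested. Signal over background limits Fos, whose lowest group mean (3.58) lies below the lower quartile of all values, and Fosl1, between 4.27 and 4.57.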
